A study of Caenorhabditis elegans with 2 samples.

Results

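The translation initiation and elongation factor genes described here are the protein-coding genes on the nuclear chromosomes whose WBcel235 name starts with eif-, eef-, ife- or ifg-. The rule found 37 of 19973 protein-coding genes, made up of 25 eif- genes, 6 eef- genes, 5 ife- genes and ifg-1. The group was picked after the eif gene class had stood out in these same data for its share of genes with a promoter peak. Peak positions and signal values therefore chose the members, and the shares and levels below are descriptions without a test.

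Binding of the transcription factor HLH-30 was mapped by ChIP-seq in whole Caenorhabditis elegans hermaphrodites collected as L4 larvae. The strain, OP433, carries the unc-119 allele tm4063 on chromosome III and the transgene wgIs433, which makes HLH-30 with GFP and FLAG fused to its C terminus, and chromatin was precipitated with an antibody against GFP. The 2 biological replicates came from separate biosamples and form 1 group, so all samples carry the same allele and transgene. No untagged strain, hlh-30 mutant or starved group was analysed here, and the transgene's copy number and the state of the endogenous hlh-30 gene were not stated in the labels. Since whole animals were used, binding in few cells and weak binding in many cells cannot be told apart.

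The protein HLH-30 belongs to the helix-loop-helix factors with a leucine zipper. It is the worm counterpart of mammalian TFEB and is known for switching on autophagy and lysosome genes when food is short. Such factors bind the E-box, with CACGTG and CACATG as the usual forms. In translation, initiation factors bring the small ribosomal subunit, the initiator tRNA and the capped mRNA together, and elongation factors then deliver each aminoacyl-tRNA and move the ribosome along. Protein synthesis is a large energy cost, and its initiation is lowered in starved or stressed cells, largely through eIF2 and the cap-binding factors.

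Peak strength is given as the authors' signal value, a score on a scale that is not stated, which ranks peaks within 1 list. The thresholded list held 7168 peaks with a median signal of 61.8 and a lowest value of 31.9. The pooled list and each replicate list held 30000 entries, background included. Values of the pooled, replicate 1 and replicate 2 lists come from 3 separate calls. The files hold no read counts, so depth is unknown. Means, SDs and ratios across the 2 replicate lists are therefore not corrected for depth. Promoter windows covered 1000 bp before and 200 bp after every annotated 5′ end of a gene, and a gene had a promoter peak if a peak summit lay in any of them.

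The sequences below are the 101 bases centred on 6 of the member summits, read from the RefSeq genome of the WBcel235 assembly and written 5′ to 3′ in the direction of the gene. They show the strongest elongation factor promoters, the strongest cap-binding promoter and some of the promoters that hold the shared letters described later. Capitals mark CACATG or its reverse complement CATGTG, the hexamer TACGGT, and the run AAGGCGCATG.
eef-1A.1 (chrIII:6972035-6972135, minus strand): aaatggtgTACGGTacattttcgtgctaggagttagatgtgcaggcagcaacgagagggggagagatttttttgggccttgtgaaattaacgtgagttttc
eef-1A.2 (chrX:7823193-7823293, plus strand): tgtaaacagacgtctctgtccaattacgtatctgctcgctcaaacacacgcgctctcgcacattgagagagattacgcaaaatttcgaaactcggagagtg
eif-2A (chrII:10416651-10416751, plus strand): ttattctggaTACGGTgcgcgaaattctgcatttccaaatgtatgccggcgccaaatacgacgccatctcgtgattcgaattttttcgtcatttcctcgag
eif-3.G (chrII:8442349-8442449, plus strand): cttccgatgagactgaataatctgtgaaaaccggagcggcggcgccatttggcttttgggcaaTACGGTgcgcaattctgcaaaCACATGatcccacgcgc
eef-1B.2 (chrIV:15037112-15037212, plus strand): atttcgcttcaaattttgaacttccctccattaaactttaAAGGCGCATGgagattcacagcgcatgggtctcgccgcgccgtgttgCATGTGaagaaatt
ife-2 (chrX:382865-382965, minus strand): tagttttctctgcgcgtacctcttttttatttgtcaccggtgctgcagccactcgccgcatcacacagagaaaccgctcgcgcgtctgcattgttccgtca

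The windows of eef-1A.1, eef-1A.2 and ife-2, 3 strong peaks, held no capitalised E-box. The windows of eif-3.G and eef-1B.2 each held a CACATG site, 34 and 37 bp from the summit. In eif-2A and eif-3.G the hexamer TACGGT was followed by the same 4 letters, gcgc.

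Of the 37 translation factor genes, 24 (64.9%) had a peak of tagged HLH-30 in a promoter window, beside 20.1% of all protein-coding genes. The 24 genes held 27 promoter peaks, since eef-1B.1 had 3 and eif-2Bgamma had 2. In the 7168 strongest peaks of replicate 1 alone the number was 26 (70.3%), beside 20.2% of all genes. In those of replicate 2 alone it was 21 (56.8%), beside 20% of all genes. With the 3584 strongest peaks of the thresholded list, 16 members (43.2%) had one, beside 11.7% of all genes. The cytosolic ribosomal protein genes, whose products form the ribosome these factors act on, had a promoter peak at 68 of 78 genes.

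The members' strongest promoter peaks ran from a signal of 36.0 at eif-2Bdelta to 577 at eef-1A.1. Their median was 108.8, beside 71.3 over all genes with a promoter peak, and 16 of the 24 lay above 71.3. The 4 members eef-1A.1, eef-1A.2, eif-3.H and eif-3.I lay above 200.7, a value that 1 in 10 of all such genes reached. By median, elongation factors came first, then eIF3, then the eif-2 genes, the cap-binding factors and the other initiation factors.

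**Figure D1:**
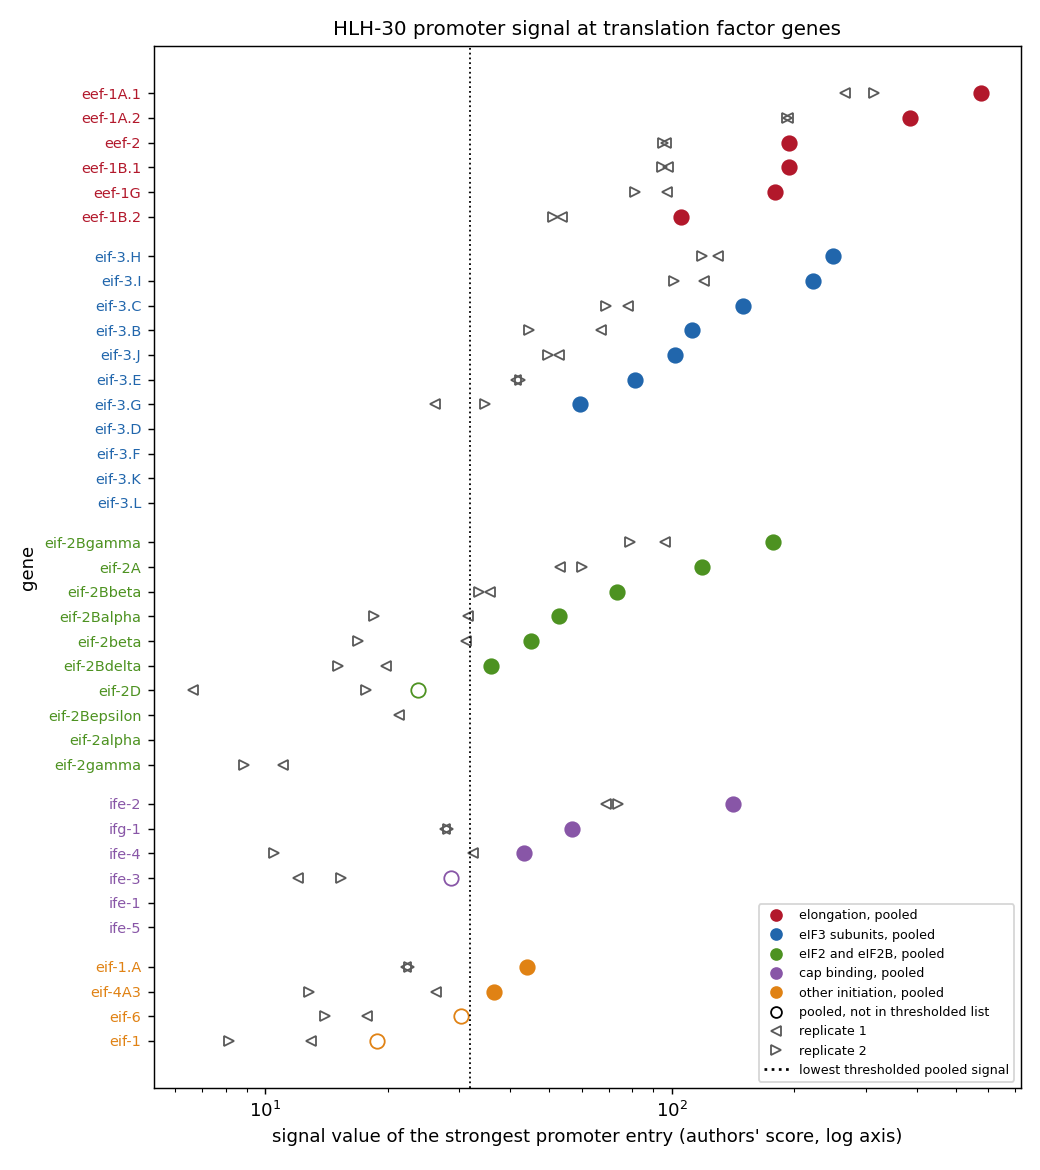
Signal value of the strongest promoter entry (log axis, authors' score) for each of the 37 genes, grouped by role, with filled circles for thresholded pooled peaks, open circles for pooled entries under the threshold, and triangles for replicates 1 and 2. All 6 elongation factor genes lie above 100, eef-1A.1 is highest at 577, and genes without any mark had no entry in any list.

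All 6 elongation factor genes had a promoter peak, in the thresholded list, in each replicate alone and among the 3584 strongest peaks. Their signals ran from 105.6 to 577, with a median of 193.8. The strongest was at eef-1A.1 (WBGene00001168, chromosome III, 6970026 to 6971712), a gene for eEF1A, the GTPase that brings aminoacyl-tRNA to the ribosome. Its peak (chromosome III, 6971896 to 6972229) was the 30th strongest of the pooled list. Its signal was 267 in replicate 1 and 314 in replicate 2, or 291 ± 33.2 (SD, n = 2). The summit lay 373 bp upstream of the 5′ end, in the space shared with the divergent gene rfc-4, a replication factor C subunit. It fell on the base at 1 end of the annotated hairpin of the microRNA cel-mir-5549.

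The second eEF1A gene, eef-1A.2 (WBGene00001169, chromosome X, 7823654 to 7825769), had the next strongest peak, with a pooled signal of 386 and rank 115 (chromosome X, 7823029 to 7823460). Replicate 1 gave 193 and replicate 2 gave 192, or 193 ± 0.411 (SD, n = 2), so both replicates gave nearly the same value. The summit was 411 bp upstream, and no other gene's window held it. The 2 paralogues thus had separate peaks, on different chromosomes, and every 30-base run inside both peaks occurred once in the genome.

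The gene eef-2, for the GTPase that moves the ribosome by a codon, had a signal of 193.9, with 96.8 in replicate 1 and 94.9 in replicate 2. Its summit lay 14 bp upstream of the 5′ end and was shared with the divergent gene clsp-1, a claspin homologue of the replication checkpoint. The genes eef-1B.1, eef-1G and eef-1B.2 encode subunits of eEF1B, the complex that recharges eEF1A with GTP. Their pooled signals were 193.8, 180 and 105.6. In replicates 1 and 2 the peak of eef-1B.1 gave 97.8 and 94.7, that of eef-1G 97.1 and 81.2, and that of eef-1B.2 53.6 and 51.0. All 3 were seen at like strength in both replicates. Those of eef-1B.1 and eef-1G lay 21 and 39 bp upstream, in windows shared with aco-2, the mitochondrial aconitase gene, and ctf-4. The peak of eef-1B.2 was 169 bp upstream and in no other window. Further upstream of eef-1B.1 were 2 weaker peaks, of 87.2 at 723 bp and 39.2 at 922 bp, also in the window of aco-2. The gap between eef-1B.1 and aco-2 is 330 bp, so both summits lay past the start of aco-2. The 2 peaks overlapped each other. Replicate 1 listed them as 2 entries, of 33.8 and 44.0, and replicate 2 as 1 entry of 54.4.

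Of the 11 eIF3 subunit genes, 7 had a promoter peak, with signals from 59.6 to 249 and a median of 112. The complex eIF3 holds the small ribosomal subunit together with the other initiation factors. The highest value was at eif-3.H (WBGene00001231), at 249, with 129.6 in replicate 1 and 119 in replicate 2. Next came eif-3.I, a subunit with a WD-repeat fold, at 223, with 120.3 and 101 in replicates 1 and 2. Both summits lay between divergent genes, 259 and 221 bp upstream, and were shared with C41D11.3 and with abtm-1, a mitochondrial ABC transporter gene.

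The core subunit genes eif-3.C and eif-3.B had peaks of 149 and 112, at 258 and 244 bp upstream, in no other gene's window. For eif-3.C the replicates gave 78.0 and 68.8, and for eif-3.B 66.8 and 44.5. The values of eif-3.B were the furthest apart, at a ratio of 1.502, among the 14 members with a pooled signal over 100. The remaining peaks were at eif-3.J (102), eif-3.E (81.1) and eif-3.G (59.6), and that of eif-3.J lay 969 bp upstream, near the end of the window. The gap between eif-3.J and its upstream neighbour on the same strand, slc-25A46, is 877 bp, so that summit lay inside slc-25A46. Replicates 1 and 2 gave 52.6 and 49.5 for eif-3.J, 41.4 and 42.4 for eif-3.E, and 26.1 and 34.6 for eif-3.G, the one of the 7 that was not among the 3584 strongest peaks. The summit at eif-3.E was shared with B0511.17. All 7 genes kept a peak in each replicate alone. The other 4, eif-3.D, eif-3.F, eif-3.K and eif-3.L, had no entry in their windows in any of the lists, background included. The subunits of 1 complex were thus split, in these windows, between genes with a promoter peak and genes with no listed entry. With a window of 2000 bp upstream and 500 bp downstream, eif-3.K also had a peak, while eif-3.D, eif-3.F and eif-3.L had none.

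The genes named eif-2 cover the 3 subunits of eIF2, which carries the initiator tRNA, the 5 subunits of eIF2B, which recharges it with GTP, and the separate factors eIF2A and eIF2D. Of these 10 genes, 6 had a promoter peak, with signals from 36.0 to 177 and a median of 63.0. Of the eIF2 genes only eif-2beta had one, at 44.9, with 31.1 in replicate 1 and 16.9 in replicate 2. It lay inside an intron of eif-2beta, 201 bp upstream of the more downstream of 2 annotated 5′ ends, and was not counted when the most upstream 5′ end alone was used. The gene of the alpha subunit, whose phosphorylation slows initiation under stress, had no entry in any list. The gamma gene had entries in replicate 1 (11.0) and replicate 2 (8.84) and none in the pooled list.

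The eIF2B genes had peaks at 4 of 5 subunits. The highest, at eif-2Bgamma, had a signal of 177, with 96.2 in replicate 1 and 78.7 in replicate 2, and lay 929 bp upstream. That place is within the neighbouring gene C15F1.5, 19 bp from the small nuclear RNA gene sup-39, and 85.1% of the 30-base runs in the peak were unique in the genome. It was the least unique of the 27 member promoter peaks, since the other 26 were at 100%. A second peak of eif-2Bgamma, 127 bp upstream, had a signal of 59.8, with 26.2 and 28.3 in replicates 1 and 2.

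The peaks of eif-2Bbeta (73.3) and eif-2Balpha (52.7) were shared with Y47H9C.8 and mut-7, a gene of RNA silencing. Replicates 1 and 2 gave 35.8 and 33.5 for eif-2Bbeta, and 31.6 and 18.5 for eif-2Balpha. The catalytic subunit gene, eif-2Bepsilon, had an entry in replicate 1 alone, at 21.4. The peak at eif-2Bdelta was the weakest of all members, at 36.0, with 19.8 in replicate 1 and 15.1 in replicate 2. The same gene held a stronger peak inside an intron (chromosome V, 9516366 to 9516571), with a signal of 132.7 and replicate values of 62.0 and 71.6. This intron peak, 2276 bp downstream of the nearest 5′ end, had a CACGTG or CACATG within 50 bp of its summit. The factor eIF2A binds the initiator tRNA apart from eIF2, as known from mammals and yeast, and its gene eif-2A had a peak of 119, at 53.0 and 60.1 in replicates 1 and 2. It lay 99 bp upstream and in no other gene's window.

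Cap binding rests on eIF4E, encoded by the ife genes, and on the scaffold eIF4G, encoded by ifg-1. Peaks were found at 3 of these 6 genes, with signals of 142 at ife-2, 56.9 at ifg-1 and 43.3 at ife-4. The gene ife-2 encodes a somatic eIF4E whose loss is known to lengthen life in worms. Its peak (chromosome X, 382809 to 383003) gave 68.9 in replicate 1 and 73.5 in replicate 2, or 71.2 ± 3.29 (SD, n = 2), and lay 206 bp upstream in no other window. The peak of ifg-1 was 604 bp upstream and shared with M110.3, with 27.6 and 28.1 in replicates 1 and 2. For ife-4 the replicates differed most, by ratio, among all members, with 32.4 in replicate 1 and 10.5 in replicate 2. The genes ife-1 and ife-5 had no entry in any list, and ife-3, the closest counterpart of mammalian eIF4E, had 1 under the threshold.

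Among the other initiation factors, eif-1.A and eif-4A3 had weak peaks of 44.0 and 36.5. The first encodes eIF1A, which helps the ribosome scan for the start codon, and its replicates gave 22.2 and 22.6. The second encodes a helicase of the exon junction complex, and its replicates gave 26.3 and 12.8. Neither was among the 3584 strongest peaks, and the peak of eif-4A3 was shared with vps-20. The genes eif-1, whose product works with eIF1A in scanning, and eif-6, whose product keeps the ribosomal subunits apart, had none.

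The threshold lay between members of similar signal. Just inside it were eif-2Bdelta at 36.0 and eif-4A3 at 36.5. Just outside were eif-6 at 30.4, of rank 7485 in the pooled list, and ife-3 at 28.6. In replicates 1 and 2, eif-6 had 17.8 and 14.0, and ife-3 had 12.1 and 15.3. Both genes were thus listed in each replicate as well as in the pooled list. Further entries under the threshold were found at eif-2D (23.8) and eif-1 (18.9). For eif-2D the replicates were far apart, at 6.65 and 17.7. The remaining 9 of the 13 genes without a peak had no pooled entry, and 7 of them no entry in any list. Over all genes without a promoter peak, 24.5% had a pooled entry in a window. The nearest thresholded summit was 918 to 13710 bp from the 5′ ends of the 13 genes, with a median of 2243 bp.

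Position along the promoter was close to that of other genes. The strongest summit of the 24 genes lay at a median of 232.5 bp upstream of the nearest 5′ end, beside 232 bp over all genes with a promoter peak. It was upstream in 24 of 24 members, beside 93.1% of all such genes, and within 500 bp upstream in 20 (83.3%), beside 70.3%. The exceptions were eif-3.J, eif-2Bgamma, ifg-1 and eif-4A3, all further upstream. Among elongation factors, the eEF1A genes had their summits 373 and 411 bp upstream, while those of eef-2, eef-1B.1 and eef-1G were within 39 bp of the 5′ end. Trans-splicing is common in worms, and transcription can start upstream of the annotated end.

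**Figure D2:**
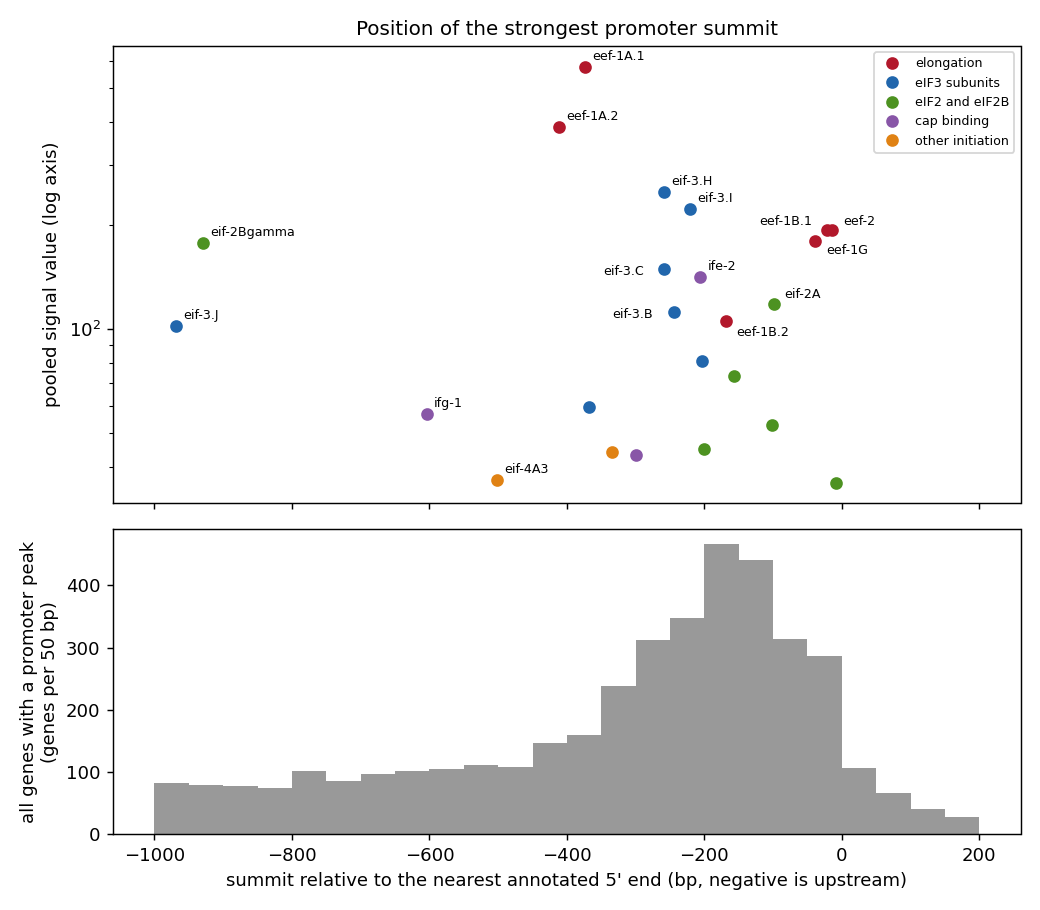
The upper panel plots the pooled signal (log axis) of each member's strongest promoter peak against its summit's distance from the nearest annotated 5′ end, coloured by role, and the lower panel counts all genes with a promoter peak per 50 bp of the same axis. All 24 member summits lie upstream, 20 of them within 500 bp, and both eEF1A genes stand near the top.

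Neighbouring genes shared many of these peaks. The strongest peak lay in another gene's window as well for 12 of 24 members (50%), beside 38.4% of all genes with a promoter peak. By the layout upstream, 12 members had a divergent neighbour within 500 bp, and 7 of them had a promoter peak, beside 36.4% of all genes so placed. With a divergent neighbour further away it was 6 of 7, beside 23.6%. For a neighbour on the same strand within 500 bp, a layout that includes genes inside operons, it was 3 of 7, beside 13.9%. With such a neighbour further away it was 8 of 10, beside 16%. The last member, ife-1, begins inside dro-1 and had no peak. The gene eif-2alpha starts 132 bp after phb-1, a prohibitin gene, whose promoter window held a peak of 95.1. A peak of the same signal was listed for Y37E3.8.

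When each summit was given only to the gene with the nearest 5′ end, 19 members kept a promoter peak, beside 16.4% of all genes. Those that did not were eef-1A.1, eif-3.H, eif-2Bbeta, ifg-1 and eif-4A3, whose summits lay nearer to the divergent partner. For the 2 strongest of these, at eef-1A.1 and eif-3.H, the partners were rfc-4 and C41D11.3. The files do not say which gene of a divergent pair a peak acts on.

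**Figure D3:**
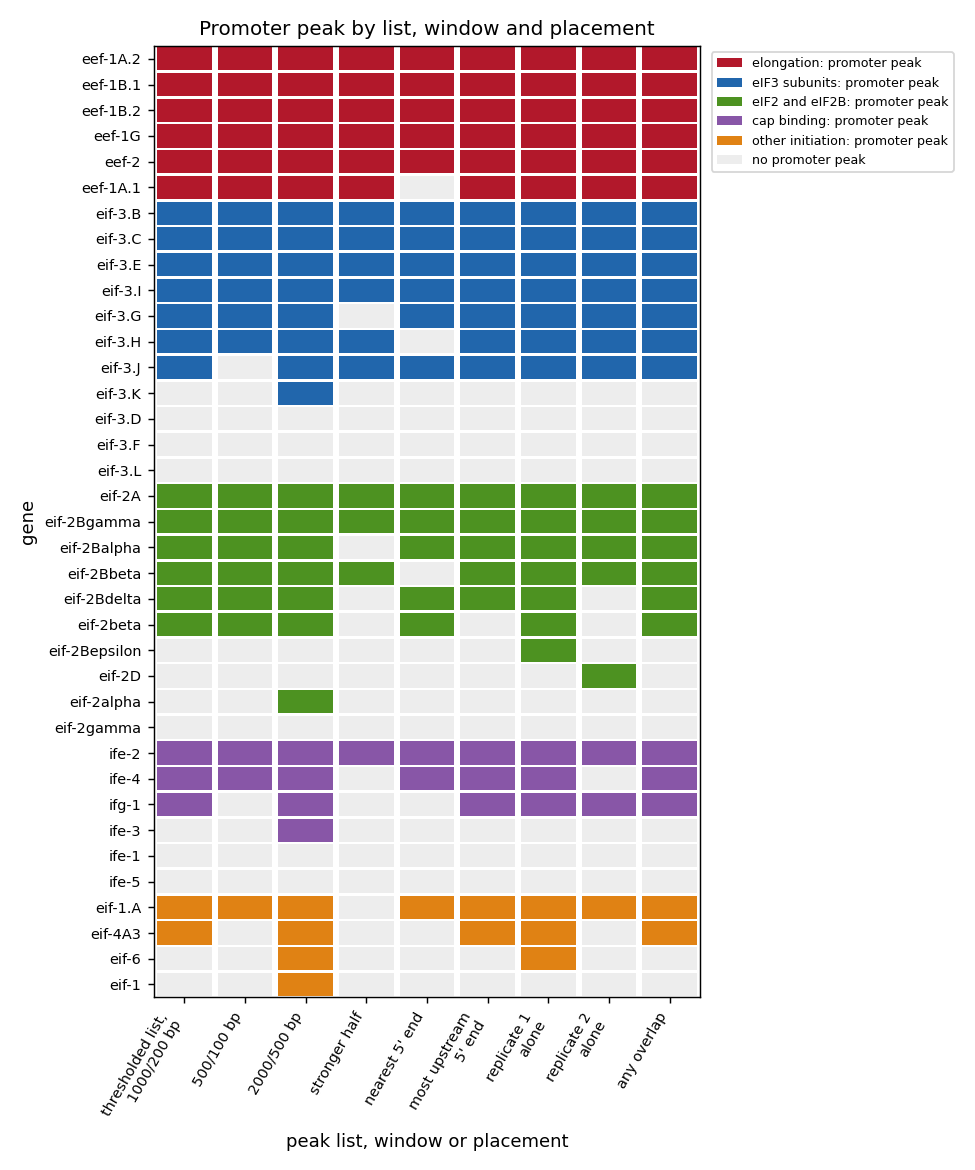
Whether each of the 37 genes (rows, grouped by role) had a promoter peak under each peak list, window or placement (columns), with a coloured box for a peak and a grey box for none. A peak was found under all 9 settings for 12 genes and under none for 6, and eef-1A.1 lost its peak when each summit went to the nearest 5′ end.

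Both replicates gave an entry at all 24 strongest promoter peaks, beside 3968 of the 4012 genes with a promoter peak. The thresholded list was made by irreproducible discovery rate (IDR), a filter on agreement between calls, and the replicate lists include background. Such entries were therefore largely set in advance and say little about agreement at the members. Of the 24 genes, 20 had a promoter peak in each replicate alone, a share that was not counted over all genes. The 4 that lacked one in replicate 2 were eif-2Bdelta, eif-2beta, eif-4A3 and ife-4, all of pooled signal under 50. Replicate 1 alone added eif-2Bepsilon and eif-6, and replicate 2 alone added eif-2D. The ratio of replicate 1 to replicate 2 ran from 0.754 at eif-3.G to 3.08 at ife-4, with a median of 1.07, beside 1.02 over 3968 genes. It was past 2-fold for 2 members, ife-4 and eif-4A3, beside 9.05% of those genes. Replicate 1 was the higher for 17 members (70.8%), beside 52.5% of genes. For the 14 members over a pooled signal of 100 the ratio stayed between 0.850 and 1.502.

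**Figure D4:**
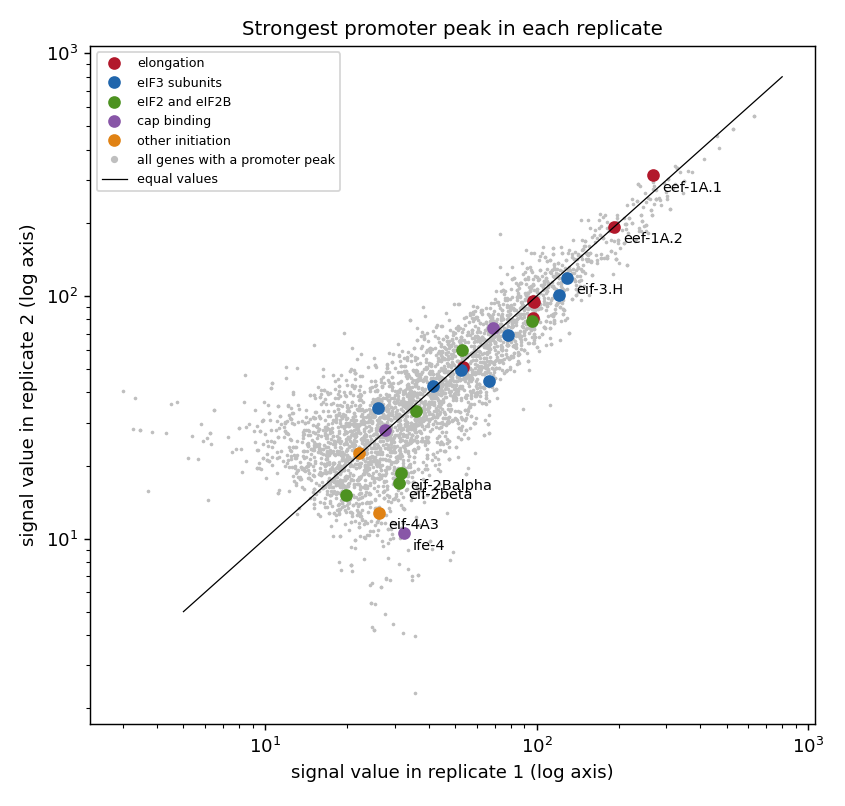
Signal value of the strongest promoter peak in replicate 1 and replicate 2 (both log axes), with coloured points for the 24 members by role, grey points for the 3968 genes with a value in both lists, and a line at equal values. The strong members lie near the line, and ife-4, at 32.4 in replicate 1 and 10.5 in replicate 2, lies furthest below it among the members.

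The E-box forms were few under the members' summits. Within 50 bp of the summit, read on both strands, CACGTG was in 0 of the 27 member promoter peaks, beside 9.7% of all 3679 promoter peaks. CACATG was in 3 of them (11.1%), at eif-4A3, eif-3.G and eef-1B.2, beside 12.6%. Either form was thus in 11.1% of member peaks, beside 21.5% of all promoter peaks. The 3 sites stood off the summit, with the nearest base 27 bp away at eif-4A3, 34 bp at eif-3.G and 37 bp at eef-1B.2. Within 25 bp of the summit the members had 0 sites, beside 12.2% of all promoter peaks, and with 27 peaks such shares are imprecise. Over whole promoter windows, 6 members (16.2%) held a CACGTG and 13 (35.1%) a CACATG, beside 21.4% and 37.1% of all genes.

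Other letters recurred under the members' summits. Of 2080 hexamers, with both strands joined, 3 were in at least 6 member peaks and at least 4 times as frequent there as in all promoter peaks. They were picked after their counts were seen, and no test was made. CCGCGC was in 8 peaks (29.6%), beside 5.16% of all promoter peaks. Its peaks were those of eef-1B.2, eif-1.A, eif-3.B, eif-3.C, eif-3.H, eif-3.I, eif-3.J and eif-4A3. TACGGT was in 7 (25.9%), beside 5.52%. These were eef-1A.1, eef-2, eif-2A, eif-3.G, eif-3.H, eif-3.I and eif-3.J. CCGCGC or TACGGT was thus found at some genes of every role except cap binding, and most often at eIF3 genes. At eef-2, eif-3.H, eif-3.I and eif-3.J the TACGGT site stood within 5 bp of the summit. AATCTC was in 6 (22.2%), beside 4.84%.

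A run of 10 bases, AAGGCGCATG, was also picked after its count was seen, from runs present in at least 3 member peaks. It was in the peaks of eef-1B.1, eef-1B.2 and eif-2beta (11.1%), beside 0.598% of all promoter peaks. At eef-1B.2, printed above, its last base was next to the summit. The member windows had a median GC content of 46.5%, beside 44.6%, and a median of 8 CG dinucleotides, beside 5. Both CCGCGC and TACGGT contain CG. The part of CG content in these counts was not tested.

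Further genes of the pathway outside the name rule were also often occupied. They were listed with earlier results of these data known, so their share is a description and does not bear out that of the members. Of 20 listed genes for accessory initiation factors, eIF2 kinases, poly(A)-binding proteins, release factors and mitochondrial elongation factors, 18 were matched by name (iftb-1 and gfm-2 were not), and 14 (77.8%) had a promoter peak, beside 20.1% of all genes, with a median signal of 110. The strongest was at iff-2, an eIF5A gene, at 1011, with 529 in replicate 1 and 486 in replicate 2. It was followed by ifet-1, whose product represses translation by binding eIF4E, at 491, and by pab-2, a poly(A)-binding protein gene, at 199. The first 2 were shared with F54C9.14 and with rps-1, a ribosomal protein gene. The peak of pab-1, at 53.6, was shared with the ribosomal protein gene rpl-30. No peak was found at iff-1, the other eIF5A gene, at gcn-2, an eIF2 kinase gene, or at the mitochondrial factor genes tsfm-1 and gfm-1. An E-box form lay within 50 bp of the summit at 3 of the 14, beside 21.5% of all promoter peaks. The 3 were efk-1, the eEF2 kinase gene, abce-1 and tufm-2.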

How the data were processed

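HLH-30 ChIP-seq of 2 biological replicates of L4 hermaphrodites was used as peak lists on ce11, which is WBcel235. Per the text deposited with the samples, the authors called peaks and background against a control alignment for each replicate and for both pooled, and made the thresholded list by irreproducible discovery rate (IDR). Signal values are the authors' score as deposited, and summits are deposited positions. No source used here gives the aligner, peak caller or IDR threshold. Depth is unknown, and lists on ce10 were not used.

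Summits were joined to the protein-coding genes of Ensembl release 115 in Python 3.11.15, and the steps were tested on simulated data. A replicate's value is its list's entry overlapping the pooled peak. The strongest 7168 peaks stood for a replicate alone. All members were accounted for. The 20 further genes were a fixed list. The members and lists were chosen with earlier results of these data known. Genes are not replicates and neighbours share peaks, so shares over all genes are given in place of tests. Figures used matplotlib 3.10.9.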

Additional observations from a re-analysis of the deposited data

How the results depend on the processing

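The number of members with a promoter peak stayed between 16 and 29 of 37 under every list, window and placement tried, within 1.5 times of 24. It was 21 with a window of 500 bp upstream and 100 bp downstream, 29 with 2000 and 500 bp, 23 with the most upstream 5′ end alone and 24 by any overlap. Over all genes the shares under these 4 settings were 15.8%, 25.9%, 18.5% and 21.4%. The median signal was 163.3 among the 3584 strongest peaks, since weak peaks are left out there, and 52.8 to 60.1 when 1 replicate was left out, on the scale of a single replicate. An E-box form was found at 0 of 24 occupied members within 25 bp of the summit and at 4 of 24 within 100 bp. Among the 3584 strongest peaks it was found at 1 of 16. The shares of all promoter peaks under these settings were 12.2%, 28.6% and 24.8%. Without replicate 2 the number was 4 of 26, beside 20.3%, and without replicate 1 it was 2 of 21, beside 20.6%. The member counts are of genes and the shares are of peaks, so they are not of the same unit. No paired analysis was possible because the series holds 1 group. With 2 replicates, no read counts and no untagged control, weak peaks near the threshold, such as those of eif-2Bdelta and eif-4A3, rest on the authors' call alone.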

Other observations

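Annotated noncoding RNAs lay close to the summit of 3 of the 27 member promoter peaks (11.1%) within 100 bp, beside 11.7% of all promoter peaks. The first was the eef-1A.1 peak, on cel-mir-5549. The second was the nearest eef-1B.1 peak, of signal 193.8, whose summit fell inside the annotated noncoding RNA F54H12.9 (chromosome III, 7973327 to 7973465). The third was the far peak of eif-2Bgamma, 19 bp from sup-39 and 15 bp from the noncoding RNA C15F1.14. Whether these peaks belong to the translation factor gene or to the noncoding RNA was not tested.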
